A study of Mus musculus with 4 samples.

Results

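The Rn45s locus is the interval annotated as the 45S ribosomal RNA precursor gene on mouse chromosome 17, plus strand. It runs from 39979942 to 39985774 in the build mm9, a length of 5.83 kb. Its members are all plus-strand peaks of the deposited lists that overlap this interval, and there were 28 of them among 240811 peaks in all. The locus was selected on the rank of its peaks, several of which stand at the top of these lists, so peak presence, position and rank are given as a description, with no test. The assay was CLIP-seq: cells are irradiated so that proteins become bonded to nearby RNA, an antibody recovers one of them, here the RNA-binding protein Musashi-1 (Msi1), and the RNA that comes along is sequenced. The study, on Msi proteins as intestinal oncoproteins, had 4 libraries of mouse intestinal epithelium. The 2 wild-type libraries came from crypts of control mice without doxycycline, and the 2 TRE-Msi1 libraries from total epithelium of mice with a doxycycline-driven Msi1 transgene, taken after 24 h of doxycycline. Genotype, drug and the cells taken therefore changed together and cannot be told apart. The sources used here give neither the animals' age and strain nor the driver of the doxycycline response.

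RNA polymerase I transcribes ribosomal RNA as a long precursor, which opens with an external transcribed spacer and then holds the RNAs of the small subunit (18S) and of the large subunit (28S and a shorter one), with internal spacers between them. The spacers are cut out and degraded in the nucleolus, whereas the mature RNAs enter the ribosome and make up most of the RNA of a cell. The genes lie in tandem arrays of near-identical copies, of which a genome build holds few. Reads from any copy can therefore be placed on the one that is present, and the sources used here do not say how reads with several matches were treated. RefSeq's table for GRCm38.p6 lists Rn18s-rs5 on chromosome 17, an 18S-related sequence annotated as a pseudogene, with Rnr17 and Gm42418 among its other names. Its position was not compared with the mm9 peaks, because the builds differ. Which part of the precursor each peak sits on, and which letters lie under it, was not analysed here. Whether the interval holds the whole precursor was not checked either. The 5′ and 3′ ends named below are those of the interval, and need not be those of the precursor.

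The lists differ in form, which touches every value of 1 library. All locus peaks were 74 bp wide in wild-type replicate 1, 40 bp in TRE-Msi1 replicate 1, and 75 bp in the replicate 2 lists of both groups, equal to each list's median width. The authors' score is 0 throughout wild-type replicate 1, so ranks there are places in the file. The unit of the score is not stated, and scores were not compared between lists. No input or control-antibody library was used here, so a peak is a called position on RNA, and binding by Msi1 was not shown for it. Read numbers are unknown, and markers of the epithelium were not checked, since no mm9 annotation was used here.

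Peaks on the ribosomal locus were about as many without induction as with it. Wild-type replicate 1 had 6, wild-type replicate 2 had 6, TRE-Msi1 replicate 1 had 10 and TRE-Msi1 replicate 2 had 6. The groups met at 6 and only TRE-Msi1 replicate 1 stood above that number. On the scale of log2(peaks + 1) the mean was 2.81 ± 0.00 (SD, n = 2) in wild-type and 3.13 ± 0.46 (SD, n = 2) in TRE-Msi1 libraries, a difference of 0.33 that is smaller than the SD of the TRE-Msi1 pair. Without TRE-Msi1 replicate 1 the difference was 0.00, and without TRE-Msi1 replicate 2 it was 0.65. With 2 libraries against 2, a two-sided exact permutation test cannot give a p-value below 0.333. The protocols mention 2 mice for each group, and the libraries of a group were taken as separate samples on that basis.

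As part of each list the locus was larger in wild-type libraries, because the TRE-Msi1 lists are far longer. The 6 peaks were 0.123% of the 4863 peaks of wild-type replicate 1 (95% Wilson interval 0.0566 to 0.269%) and 0.108% of the 5578 of wild-type replicate 2 (0.0493 to 0.234%). They were 0.0147% of the 40776 peaks of TRE-Msi1 replicate 2 (0.00674 to 0.0321%), and the 10 peaks of TRE-Msi1 replicate 1 were 0.00527% of its 189594 (0.00287 to 0.00971%). The intervals of the wild-type lists lay wholly above those of the TRE-Msi1 lists, which follows from the list lengths and is no test between groups. These intervals take each peak as an independent draw, so they hold counting error alone.

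All 28 peaks fell in one stretch near the 3′ side of the annotated interval. It ran from 39983316 to 39985152, which is 1837 bp or 31.5% of the locus. No library had a peak in the first 3374 bp, from 39979942 to 39983315, which is 57.8% of the locus from its 5′ end. No library had one in the last 622 bp either, from 39985153 on, which is 10.7% of the locus. The silent 5′ part was thus the longest peak-free run in each library, at 3648 and 3578 bp for wild-type replicates 1 and 2 and 3374 and 3574 bp for TRE-Msi1 replicates 1 and 2. In TRE-Msi1 replicate 1 it was the shortest, ending where that library's extra 5′ peaks begin. The silent 3′ part measured 970, 754, 644 and 622 bp in the same order, and was longer in both wild-type libraries than in both TRE-Msi1 libraries. A stretch without a peak shows only that none was called there.

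**Figure D1:**
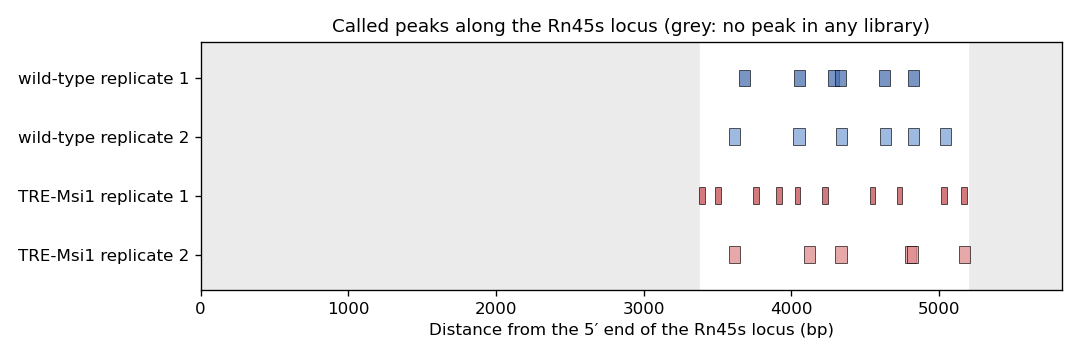
Peaks of the 4 libraries (rows) along the Rn45s locus, as distance in bp from its 5′ end, each bar drawn at its called width; grey marks the parts with no peak in any library. The first 3374 bp and the last 622 bp are empty, and all 28 peaks lie in the 1837 bp between them.

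The minus strand of the locus held 0 peaks in every library. The locus also stood alone: no list had any further peak on either strand within 5000 bp of its ends. The nearest other peaks of the chromosome lay 2980 kb upstream and 2950 kb downstream for wild-type replicate 1. For wild-type replicate 2 they lay 2030 and 3530 kb away. In TRE-Msi1 replicate 2 they lay 2890 kb upstream and 941 kb downstream. TRE-Msi1 replicate 1, with its longer list, had peaks 22.0 kb upstream and 22.5 kb downstream, ranked 139365 and 68806 in that list.

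Divided into 10 equal parts from the 5′ end, the locus had no peak centre in parts 1 to 5 and none in part 10. Part 6 held 1 peak, from TRE-Msi1 replicate 1. Parts 7, 8 and 9 held 2, 3 and 1 peaks of wild-type replicate 1, and 2 peaks each of wild-type replicate 2. For TRE-Msi1, they held 4, 2 and 3 peaks (replicate 1) and 1, 2 and 3 peaks (replicate 2). Every library thus had peaks in each of these 3 parts. Over all libraries together, peaks covered 54.5% of part 7, 60.4% of part 8 and 50.3% of part 9.

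The length under peaks was similar in all libraries. Wild-type replicates 1 and 2 covered 419 and 450 bp, and TRE-Msi1 replicates 1 and 2 covered 400 and 390 bp, or 6.69 to 7.71% of the locus. Both wild-type values were the higher, by 19 bp at the closest approach. TRE-Msi1 replicate 1 reached this length with more and narrower peaks: at 75 bp a peak its 10 peaks would cover 750 bp, above both wild-type libraries. Together the libraries covered 1023 bp, which is 55.7% of the occupied stretch. The longest break inside that stretch was 154 bp, at 39984317 to 39984470.

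The ribosomal peaks were among the best-ranked of every list. They took ranks 1, 2, 3, 4, 10 and 24 of wild-type replicate 1, where rank means place in the file. They took ranks 1, 2, 3, 4, 9 and 17 of wild-type replicate 2. In TRE-Msi1 replicate 2 they ranked 3, 5, 6, 7, 11 and 17. The 10 peaks of TRE-Msi1 replicate 1 ranked 3, 4, 5, 25, 40, 43, 58, 143, 222 and 367. Of the first 10 ranks, the locus held 5 in each wild-type list and, for TRE-Msi1, 3 in replicate 1 and 4 in replicate 2. The lowest-ranked member still lay within the top 0.494% and 0.305% of the wild-type lists (replicates 1 and 2), and within the top 0.194% and 0.0417% of the TRE-Msi1 lists. Ranks from lists of such different lengths show no change between groups.

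**Figure D2:**
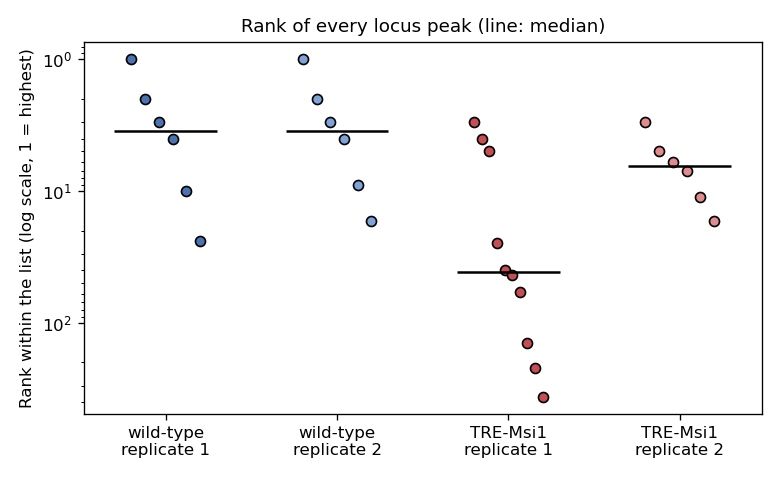
Rank of each locus peak within its own list (vertical axis, log scale, 1 at the top) for the 4 libraries, with a line at the median. The medians are 3.5 in both wild-type lists, and 41.5 (replicate 1) and 6.5 (replicate 2) for TRE-Msi1.

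By the authors' score, the locus stood far above the bulk of each list that has scores. Its peaks scored 215 to 595 in wild-type replicate 2, where the list's median was 6 and its highest score, 595, was on the locus. In TRE-Msi1 replicate 2 they scored 157 to 292, with a list median of 6 and a highest score of 513. In TRE-Msi1 replicate 1 they scored 11.3 to 19.2, with a list median of 1.80 and a highest score of 19.9. The locus held 5.13% of the summed score of wild-type replicate 2, 0.422% of that of TRE-Msi1 replicate 2 and 0.0387% of that of TRE-Msi1 replicate 1. The range of the score differs between lists and its unit is not stated, so these shares cannot be compared between lists and do not measure RNA.

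No interval was identical in any pair of libraries. Between lists of different peak width none could be. When overlapping peaks of all libraries were joined, the 28 peaks formed 14 places. Of these, 1 held a peak of all 4 libraries, 3 held 3 libraries, 3 held 2 libraries and 7 held 1 library, which was TRE-Msi1 replicate 1 each time. Both groups had a peak in 5 places, wild-type libraries alone in 1 place and TRE-Msi1 libraries alone in 8. Without TRE-Msi1 replicate 1, the other 3 libraries met in 4 places. The count for all 4 libraries was 0 with a reciprocal overlap of 50%, and 3 when all peaks were given a width of 75 bp or when peaks within 75 bp of each other were joined.

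The place of all 4 libraries spanned 39983956 to 39984098. Wild-type replicate 1 had its peak at 39983959 to 39984032 (rank 24) and wild-type replicate 2 at 39983956 to 39984030 (rank 17, score 215). TRE-Msi1 replicate 1 had its peak at 39983963 to 39984002 (rank 5, score 18.7), inside both wild-type peaks. TRE-Msi1 replicate 2 had its peak further 3′, at 39984024 to 39984098 (rank 3, score 292). The TRE-Msi1 peaks did not touch each other, with 21 bp between them, and were joined only through the wild-type peaks. No base of the locus was therefore under a peak in all 4 libraries. A total of 186 bp lay under peaks of 3 libraries, 264 bp of 2 and 573 bp of 1.

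The other three places with 3 libraries joined both wild-type libraries and TRE-Msi1 replicate 2. At the first, 39983516 to 39983663, wild-type replicate 2 (39983520 to 39983594, rank 2, score 546) and TRE-Msi1 replicate 2 (39983516 to 39983590, rank 6, score 253) began 4 bp apart. Wild-type replicate 1 (39983590 to 39983663, rank 2) began 70 bp after wild-type replicate 2 and met it by 5 bp and TRE-Msi1 replicate 2 by 1 bp. At the second, 39984190 to 39984316, the peaks of wild-type replicate 1 at 39984239 (rank 4), wild-type replicate 2 at 39984242 (rank 9, score 337) and TRE-Msi1 replicate 2 at 39984240 (rank 11, score 178) began within 3 bp. Wild-type replicate 1 had a further peak there, at 39984190 to 39984263 (rank 10), which overlapped its own neighbour. At the third, 39984711 to 39984808, wild-type replicate 1 began at 39984731 (rank 3) and wild-type replicate 2 at 39984734 (rank 3, score 470). TRE-Msi1 replicate 2 had a pair of peaks there, 15 bp apart, at 39984711 (rank 5, score 253) and 39984726 (rank 7, score 250).

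The first-ranked peak of both wild-type lists overlapped no peak of the TRE-Msi1 lists. Wild-type replicate 1 had it at 39984537 to 39984610 (rank 1) and wild-type replicate 2 at 39984539 to 39984613 (rank 1, score 595). The nearest TRE-Msi1 peak lay just 5′ of it, at 39984471 to 39984510 in TRE-Msi1 replicate 1 (rank 3, score 19.2), with 26 bp between it and the wild-type replicate 1 peak. TRE-Msi1 replicate 2 had no peak between 39984314 and 39984711. This was the only place of the wild-type libraries alone. Its peaks ranked 1 in both wild-type lists, by place in the file for replicate 1, and neither TRE-Msi1 list had one there. The difference was not tested. When peaks within 75 bp of each other were joined, it became part of a place of all 4 libraries. Lack of overlap was common: 43.1% and 30.8% of all wild-type replicate 1 peaks met TRE-Msi1 replicates 1 and 2. For wild-type replicate 2 these shares were 9.25% and 15.6%. Among peaks of the first 100 ranks, locus peaks left out, they were 60.6% and 72.3% (wild-type replicate 1) and 66.0% and 79.8% (wild-type replicate 2).

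Further 3′, wild-type replicate 2 had a peak at 39984946 to 39985020 (rank 4, score 451), which contained the peak of TRE-Msi1 replicate 1 at 39984955 to 39984994 (rank 367, score 11.3). Wild-type replicate 1 had none there, its last peak ending at 39984804. The last place was the only one formed by the TRE-Msi1 pair alone. TRE-Msi1 replicate 2 had its peak at 39985078 to 39985152 (rank 17, score 157) and TRE-Msi1 replicate 1 at 39985091 to 39985130 (rank 143, score 13.7), wholly within it. The nearest wild-type peak, of replicate 2, ended 57 bp before the former began.

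**Figure D3:**
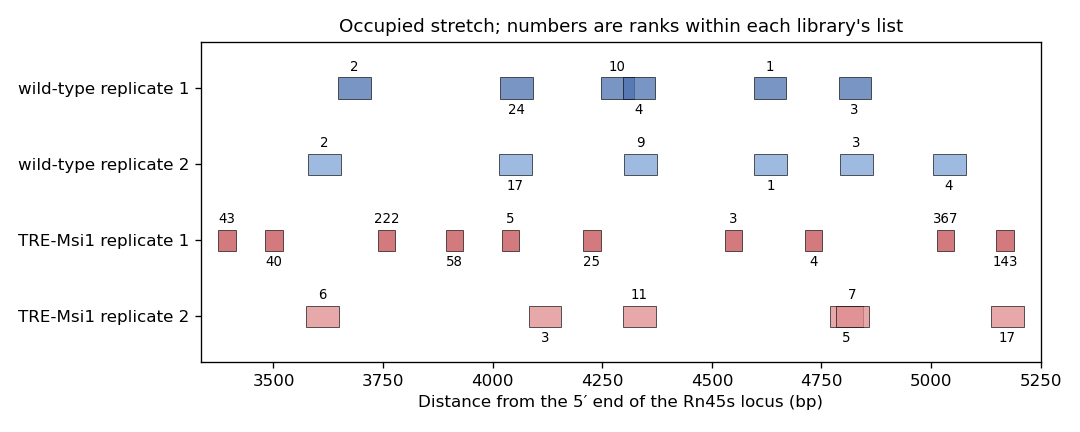
The occupied stretch enlarged, with peaks of the 4 libraries (rows) at their distance in bp from the 5′ end of the locus and the rank of each peak in its own list printed beside it. The wild-type libraries and TRE-Msi1 replicate 2 share 4 places. Of the 10 narrow peaks of TRE-Msi1 replicate 1, 7 overlap no peak of the other libraries: 2 lie 5′ of all of these and 5 lie between them. Over the whole list of TRE-Msi1 replicate 1, 2.08% of peaks overlap another library. Of its other peaks within the first 100 ranks, 21.5% do.

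Peaks of TRE-Msi1 replicate 1 that overlapped no other library lay at 39983316 (rank 43), 39983423 (rank 40), 39983680 (rank 222), 39983835 (rank 58), 39984148 (rank 25), 39984471 (rank 3) and 39984654 (rank 4), each 40 bp long. They included its 2 best-ranked peaks on the locus, and 5 of the 7 still met no other library at a width of 75 bp. Some came close: the peak at 39984148 ended 2 bp before a wild-type replicate 1 peak, and that at 39983680 began 16 bp after one. The peak at 39984654 ended 17 bp before one of TRE-Msi1 replicate 2. Lack of overlap was common in TRE-Msi1 replicate 1: 30.0% of its locus peaks met another library, against 2.08% of its whole list. Of its other peaks within the first 100 ranks, 21.5% did. Centres of this library's peaks lay a median of 118 and 113 bp from the nearest centre in the wild-type lists (replicates 1 and 2) and 126 bp from that in TRE-Msi1 replicate 2. Between the wild-type libraries that median was 3.5 bp, read from either one. From TRE-Msi1 replicate 2 it was 15.5 bp to wild-type replicate 2, 42.5 bp to wild-type replicate 1 and 84.0 bp to TRE-Msi1 replicate 1.

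Apart from the pairs with TRE-Msi1 replicate 1, peaks on the locus coincided between libraries far more often than peaks of the whole lists. Counting TRE-Msi1 replicate 1 too, all locus peaks of both wild-type libraries and of TRE-Msi1 replicate 2 met another library (6 of 6 each). The list shares were 60.8%, 22.4% and 8.89% in the same order. The wild-type replicate 2 peak at 39984946 and the TRE-Msi1 replicate 2 peak at 39985078 met TRE-Msi1 replicate 1 alone. All 6 locus peaks of wild-type replicate 1 overlapped a wild-type replicate 2 peak, against 10.6% of its list, and 5 of 6 in the reverse direction, against 9.38%. In TRE-Msi1 replicate 2, 5 of 6 overlapped wild-type replicate 1 (list 3.77%) and 5 of 6 overlapped wild-type replicate 2 (list 2.16%). Read from the wild-type side, 5 of 6 peaks of replicate 1 (list 30.8%) and 4 of 6 of replicate 2 (list 15.6%) met a TRE-Msi1 replicate 2 peak. The locus was chosen for high peaks, so these counts support nothing by themselves, and high-ranked peaks coincided often elsewhere too. Among the 100 highest-ranked peaks with locus peaks left out (94 remained), 64.9% of wild-type replicate 1 met wild-type replicate 2 and 89.4% the reverse. For TRE-Msi1 replicate 2 the shares were 53.2% (wild-type replicate 1) and 47.9% (wild-type replicate 2), and the reverse shares were 72.3% and 79.8%. With any other library, TRE-Msi1 replicate 1 included, the shares of these high-ranked peaks were 87.2% and 95.7% in wild-type replicates 1 and 2. In TRE-Msi1 replicate 2 the share was 72.3%. Set against these, the locus counts were of the same order.

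With TRE-Msi1 replicate 1, locus peaks of the other libraries coincided less often than the other high-ranked peaks of those libraries did, on 6 peaks each. Only 1 of 6 locus peaks of wild-type replicate 1 met a TRE-Msi1 replicate 1 peak, which is 16.7% (95% Wilson interval 3.01 to 56.4%), against 43.1% of the list and 60.6% of the other high-ranked peaks. For wild-type replicate 2 it was 2 of 6, or 33.3% (9.68 to 70.0%), against 9.25% and 66.0%. For TRE-Msi1 replicate 2 it was 1 of 6, or 16.7% (3.01 to 56.4%), against 5.67% and 46.8%. These intervals take each peak as an independent draw, although the wild-type replicate 1 peaks at 39984190 and 39984239 overlap each other. The locus was also chosen for its high-ranked peaks, so the intervals do not decide whether the shares differ, and no test of the difference was made. Of the locus peaks of TRE-Msi1 replicate 1 itself, 1 of 10 met wild-type replicate 1 (list 1.08%, other high-ranked peaks 18.3%). The count was 2 of 10 for wild-type replicate 2 (0.269% and 19.4%) and 1 of 10 for TRE-Msi1 replicate 2 (1.18% and 12.9%). In these last 3 readings the locus lay above the list and within 10 percentage points of the other high-ranked peaks. As deposited, 30.0% of the locus peaks of TRE-Msi1 replicate 1 met any other library, against 2.08% of its list and 21.5% of its other high-ranked peaks. At a common width of 75 bp, 50.0% of its locus peaks did. Widening peaks can hardly remove an overlap, so the direction of this change was set in advance. The shares of the list and of the other high-ranked peaks are not given at that width. Whether the difference in peak form sets these counts was not tested.

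**Figure D4:**
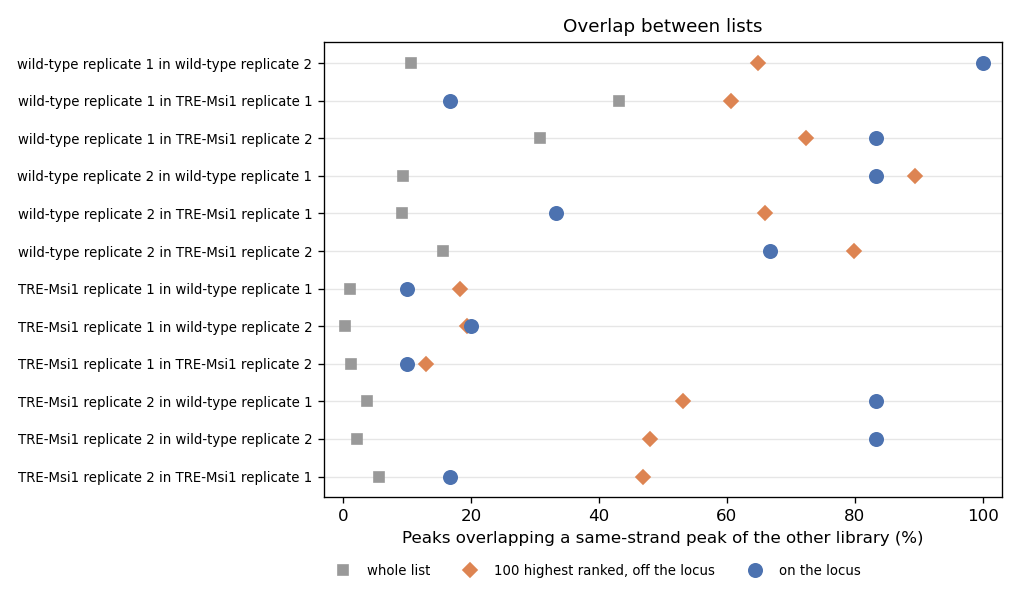
Share of peaks of one library that overlap a same-strand peak of another (horizontal axis, %), for each ordered pair of libraries. Circles are peaks on the Rn45s locus and squares the whole list. Diamonds are the 100 highest-ranked peaks with locus peaks left out, which leaves 94 peaks, or 93 in TRE-Msi1 replicate 1. For the locus peaks of the wild-type libraries and TRE-Msi1 replicate 2, shares in TRE-Msi1 replicate 1 are 16.7 to 33.3%, and shares in each other 66.7 to 100%.

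Few stretches of this length held as many peaks in every library. Among 164754 other strand-specific windows of the same length with a peak in any library, 0.421% had a peak in every library. A share of 0.00303% (5 windows) had at least 6 peaks of wild-type replicate 1 and 0.00182% (3 windows) at least 6 of wild-type replicate 2. The wild-type lists hold only 4863 and 5578 peaks, so most of these windows had no wild-type peak, which makes both shares small. The windows were tiled without regard to peaks, whereas the locus was chosen for its peaks, so the shares describe and do not test it. At least 10 peaks of TRE-Msi1 replicate 1 were found in 0.153% and at least 6 of TRE-Msi1 replicate 2 in 0.101%. Only 1 window (0.000607%) reached the locus in all 4 lists. It was also the window most like the locus, with a mean difference of 0.12 in log2(peaks + 1) over the 4 libraries, and was the first window on the plus strand of the mitochondrial genome. It held 8 and 6 wild-type peaks (replicates 1 and 2) and 11 and 6 TRE-Msi1 peaks. The next was chromosome 19, plus strand, 8796165 to 8801997, with 7, 8, 8 and 6 peaks in the same order of libraries and a mean difference of 0.21. There the best peak ranked 82, 36, 23023 and 65, below the best peak of the ribosomal locus in each list. The third, also on chromosome 19 (41285975 to 41291807, minus strand), held 4, 3, 9 and 6 peaks at a mean difference of 0.36. The other two of the nearest 5 stood at 0.37 and 0.41.

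The mitochondrial genome, which encodes its own ribosomal RNAs, shared the top of the lists with the locus in 3 libraries. Its plus-strand peaks took 3 of the first 10 ranks in each of these, beside 5 of the ribosomal locus in each wild-type list and 4 for TRE-Msi1 replicate 2. In TRE-Msi1 replicate 1 they took 0, beside 3 of the locus. The best mitochondrial plus-strand peak ranked 6 and 5 in the wild-type lists, and 128 and 1 in the TRE-Msi1 lists of replicates 1 and 2.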

How the data were processed

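Msi1 CLIP-seq peak lists of 4 libraries were used, 1 list per library. Bowtie, HOMER and mm9 are named per the submitters' processing notes, with no version, setting or role. The deposited score of each peak is the authors' own, in an unstated unit, and was used only within a list, to rank peaks (ties in row order) and to describe the locus by its score range and its share of the summed score. Coordinates were read as 0-based starts and are printed 1-based. Overlap required 1 bp on the same strand. A place is a set of peaks joined by overlap. Intervals are 95% Wilson intervals. Overlap counting was tested on simulated data and matched bedtools 2.31.1 in 24 of 24 comparisons of the whole lists. The windows most like the locus were those of the locus's length, tiled from each chromosome's first base, with the smallest mean absolute difference in log2(peaks + 1). The locus, its members and the measures were chosen with earlier results of these data known. Alternatives were a wider window, the top 25% of each list, either strand, a width of 75 bp, other overlap rules, a replicate block and leaving out each library. Ranking by row order and reading wild-type replicate 1 starts as 1-based were added after seeing the data. No sequence is shown and no ribosome biogenesis or marker gene was counted, since these need an mm9 genome or annotation. Software was matplotlib 3.10.9, scipy 1.17.1, pandas 2.3.3, numpy 2.4.6 and Python 3.11.15.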

Additional observations from a re-analysis of the deposited data

How the results depend on the processing

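Over the alternatives run, the number of locus peaks and the share of locus peaks met in another library moved by less than their spread or interval. The best rank in each list, which has no spread, did not change. In wild-type replicate 1 it could not change, because rank there is place in the file. The group difference in log2(peaks + 1) was 0.33 with a replicate block and ranged from 0.00 to 0.65 when 1 library was left out. That the replicate numbers pair the samples is not stated. Within the top 25% of each list the locus made up 0.493% and 0.430% of wild-type replicates 1 and 2, 0.0211% of TRE-Msi1 replicate 1 and 0.0589% of TRE-Msi1 replicate 2, because the lists were cut and no locus peak was. With peaks at 75 bp, TRE-Msi1 replicate 1 covered 750 bp and all libraries together 1277 bp. Leaving out 1 library gave a joint cover of 743 to 976 bp and a longest silent stretch of 3374 to 3574 bp. The number of places held by all libraries was 0 with a reciprocal overlap of 50%, 3 with peaks within 75 bp joined, 3 at a width of 75 bp, and 1 to 4 when a library was left out. The depth of the libraries is unknown, which limits what an uncalled position shows.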

Other observations

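On the locus, the order of the deposited rows and the score did not always match. In wild-type replicate 2 the fourth row, the peak at 39984242, scores 337 and ranks 9, whereas the fifth row, at 39984946, scores 451 and ranks 4. In TRE-Msi1 replicate 2 the peak at 39983516 stands in row 12 and ranks 6 by score. Wild-type replicate 1 can be ranked by row order alone.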
